A study of Drosophila melanogaster with 10 samples.

Results

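The genes described here encode structural proteins of the Drosophila melanogaster eggshell: the vitelline membrane genes Vm26Aa, Vm34Ca and psd, and the chorion genes Cp36, Cp18, Cp15, Cp19 and Cp16. They were taken as every probe set whose platform annotation names one of these genes, which gave 8 probe sets for 8 genes, of 14010 probe sets in the table that name 10844 genes. RNA of whole flies was measured on 10 Affymetrix arrays, 1 each for hours 1, 2, 3, 5, 6, 7, 9, 10, 11 and 12 of a time course, since hours 4 and 8 gave too little RNA. All arrays come from the no-yeast (NY) group: as larvae, early in the third instar, the animals were placed on standard diet without yeast, and they were on it still when the course started, 4 days after emergence, and throughout the course. Strain, sex and the number of flies in a sample are not given in the labels, and the flies returned to yeast and the samples from before the course were not analysed here.

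The eggshell is secreted by the follicle cells, an epithelium of the ovary that encloses each oocyte. During yolk uptake these cells first lay down the vitelline membrane, the inner layer, and after yolk uptake has ended they switch to the chorion, the outer layers. The chorion genes are multiplied in the genome of follicle cells before they are used, and Cp36 is known as an early chorion gene while Cp18, Cp15, Cp19 and Cp16 are used later. Oogenesis in flies kept without yeast is known to slow and to stall at the onset of yolk uptake. In the Release 6 gene order Cp18, Cp15, Cp19 and Cp16 lie next to each other in that order, Vm26Aa lies next to psd, and Cp36 lies next to the chorion gene Cp38.

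The authors' table holds intensities, not logarithms. Since probe sets differ in how strongly they bind, each gene was compared only with itself on other arrays. Of the probe sets, 8380 were bright enough to test, all 8 eggshell probe sets among them. Array medians lay between 111.1 and 120 intensity units. No hour had a second array, so a p-value sets a fitted change only against the scatter of single arrays about the fitted course. The array of hour 3 gave the highest value for 30.8% of the tested probe sets and that of hour 6 for 18.8%. For hours 7 and 1 the shares were 8.29% and 7.39%. The ratio of the actin 3' to 5' control probe sets ranged over 1.80 to 2.56. It was 1.89 and 2.52 at hours 1 and 3 and highest, 2.56, at hour 6. Most listed genes of the testis and all those of the male accessory gland had their highest value at hour 7, as described below. In whole flies, fewer follicle cells and less RNA per follicle cell cannot be told apart.

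Vm26Aa and Vm34Ca were high on the arrays of hours 1 and 3, while psd and the 5 chorion genes held nearly level over the course. No eggshell gene passed the test for a trend, for a later against earlier difference or for a smooth course. Vm26Aa encodes a major structural protein of the vitelline membrane. Its intensity was 1002, 384.1, 782, 343.6 and 435 at hours 1, 2, 3, 5 and 6. It was 339.3, 336.6, 369.1, 339.5 and 333.8 at hours 7, 9, 10, 11 and 12. Hour 1 was 2.93 times and hour 3 was 2.29 times the median of the remaining 8 arrays, and among those 8 hour 6 was the highest. The highest value was 3-fold the lowest.

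Vm34Ca encodes another structural protein of the same family. Its intensity was 687.9, 396.9, 499.6, 398.6 and 393.2 at hours 1, 2, 3, 5 and 6. It was 362, 365.7, 377.4, 412.8 and 364.9 at hours 7, 9, 10, 11 and 12. Hours 1 and 3 were again the highest, at 1.79-fold and 1.30-fold of the median of the other 8 arrays, which lay between 362 and 412.8. Over all tested probe sets, 206 of 8380, or 2.46%, had hours 1 and 3 as their highest pair of arrays. That pair was picked out after the values were seen.

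The vitelline membrane gene psd, or palisade, is needed for the assembly of the membrane. Its intensity was 215, 203.1, 235.7, 199.4 and 199.3 at hours 1, 2, 3, 5 and 6. It was 186.4, 219, 245.1, 205.9 and 194.5 at hours 7, 9, 10, 11 and 12. Its highest array was hour 10 and its lowest hour 7, with 1.32-fold between them, and hour 3 was its second highest. Hours 1 and 3 stood at 1.07-fold and 1.17-fold of the median of the other 8 arrays, which lay between 186.4 and 245.1. The high first array of its neighbour Vm26Aa was not seen for psd.

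**Figure D1:**
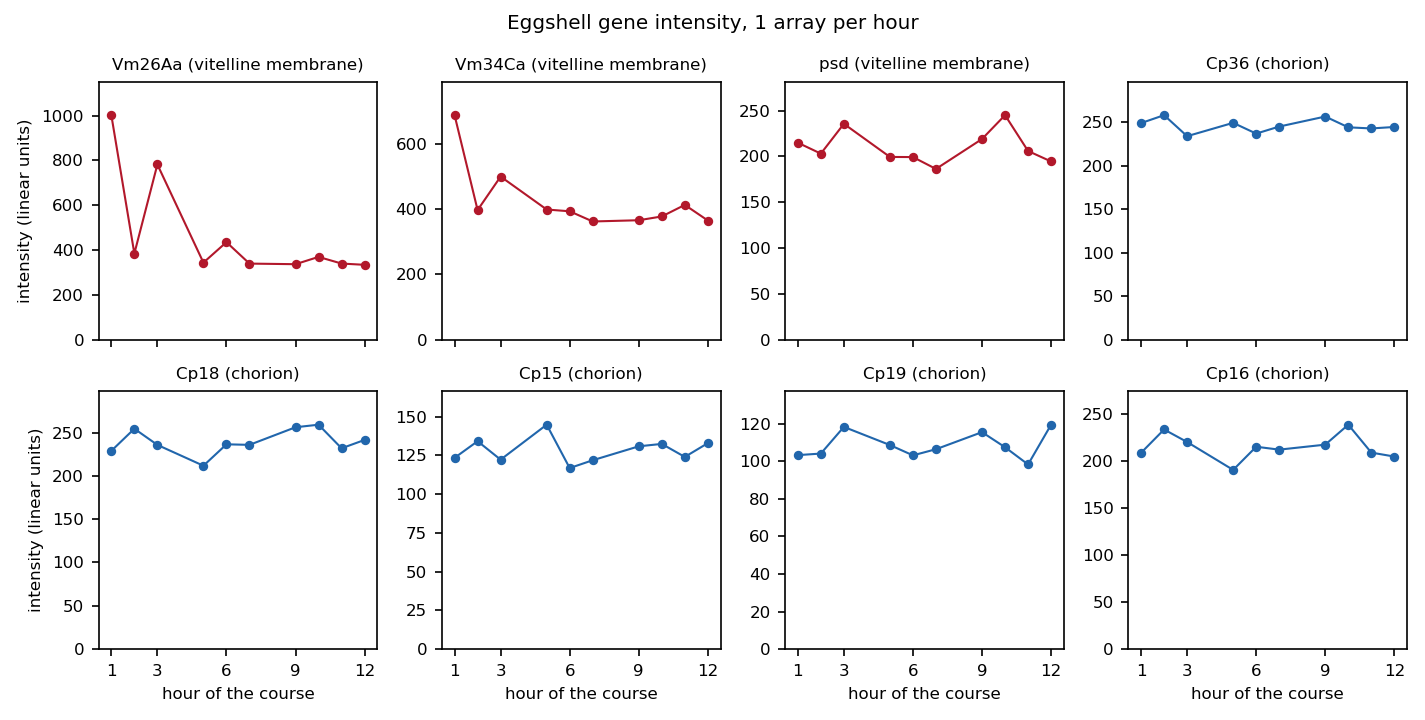
Intensity (linear units, axes from 0) of the 8 eggshell probe sets against the hour of the course, 1 point per array, with vitelline membrane genes in red and chorion genes in blue. Vm26Aa and Vm34Ca are highest at hour 1, with 1002 and 687.9, and next highest at hour 3, while the other 6 genes vary by at most 1.32-fold.

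The first test asked whether the level of a gene changed along a straight line over the 11 hours from hour 1 to hour 12. By limma with Benjamini-Hochberg adjustment over all 8380 probe sets, 0 of 8 eggshell genes passed, against 4 probe sets or 0.0477% overall. Vm26Aa had a fitted change of -1.14 ± 0.35 on the log2 scale (SE, n = 10 arrays; 95% interval -1.90 to -0.37; limma, p = 0.0073, adjusted p = 0.937). Vm34Ca had a fitted change of -0.54 ± 0.20 (95% interval -0.97 to -0.11; limma, p = 0.0178, adjusted p = 0.937). psd had -0.02 ± 0.12 (limma, adjusted p = 0.985). Vm26Aa and Vm34Ca, 2 of 8 genes, had an unadjusted p under 0.05, as did 3.71% of probe sets overall. Without the array of hour 1 the fitted change of Vm26Aa was -0.63 and that of Vm34Ca was -0.22, and without the arrays of hours 1 and 3 they were -0.19 and -0.07.

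The second test set the later hours (7 to 12, 5 arrays) against the earlier hours (1 to 6, 5 arrays). Vm26Aa averaged 343.6 ± 14.4 in the later hours and 589.4 ± 289 in the earlier hours (SD, n = 5 each). The difference, later minus earlier, was -0.65 ± 0.26 on the log2 scale (SE; limma, p = 0.0298, adjusted p = 0.758). The later values lay between 333.8 and 369.1 and the earlier values between 343.6 and 1002, so the groups overlapped, and the earlier arrays were far more scattered. Vm34Ca averaged 376.5 ± 21.1 in the later hours and 475.2 ± 127 in the earlier hours (SD, n = 5 each). The difference was -0.30 ± 0.14 on the log2 scale (SE; limma, p = 0.0585, adjusted p = 0.805). Its ranges overlapped too, with 362 to 412.8 in the later and 393.2 to 687.9 in the earlier hours. psd averaged 210.2 ± 23.1 in the later hours and 210.5 ± 15.5 in the earlier hours (SD, n = 5 each; limma, adjusted p = 0.989).

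By limma, 0 of 8 eggshell genes passed this second test, against 1 probe set or 0.0119% overall. An unadjusted p under 0.05 was reached by 1 of 8 eggshell genes and by 6.25% of tested probe sets. In 0 of 8 genes did the later and the earlier values not overlap, against 1.49% of all tested probe sets. Without the array of hour 1 the difference was -0.42 for Vm26Aa and -0.16 for Vm34Ca. A further test, for any smooth course over the hours, passed 0 of 8 eggshell genes and 0 probe sets overall (0%) by limma. In it Vm26Aa and Vm34Ca had unadjusted p-values of 0.0284 and 0.0259 and both had an adjusted p of 0.9999, and 1.62% of probe sets overall had an unadjusted p under 0.05. None of these fits describes a course in which hours 1 and 3 are high and hour 2 is not.

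The 5 chorion genes were among the less variable probe sets of the table. Cp36 encodes an early chorion protein that is needed for the layering of the endochorion. Its intensity was 249.2, 258.3, 234.1, 249.5 and 237.1 at hours 1, 2, 3, 5 and 6. It was 245.2, 256.7, 244.3, 243 and 244.7 at hours 7, 9, 10, 11 and 12. The coefficient of variation over the 10 arrays was 3.1%, and 1.25% of tested probe sets had a smaller SD of log2 intensity.

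The other chorion genes form a cluster of neighbours, and their proteins are made late in eggshell formation. Their arrays are given in order of the hour, hour 5 after hour 3 and hour 9 after hour 7. The intensity of Cp18 was 228.9, 254.4, 235.8, 211.7 and 236.4 at hours 1 to 6, and 235.8, 256.1, 259.1, 231.9 and 241.5 at hours 7 to 12. That of Cp16 was 208.7, 233.5, 220.2, 190.6 and 215.2 at hours 1 to 6, and 212.1, 217.4, 238.6, 208.9 and 204.8 at hours 7 to 12. Both lay lowest at hour 5 and highest at hour 10, and the later and earlier arrays overlapped over most of their range. Cp15 had 123.4, 134.2, 122.3, 144.9 and 116.9 at hours 1 to 6, and 121.9, 130.9, 132.5, 124.1 and 133 at hours 7 to 12. Cp19 had 103.3, 104.1, 118.3, 108.7 and 103.2 at hours 1 to 6, and 106.4, 115.5, 107.5, 98.3 and 119.5 at hours 7 to 12. Cp15 had its highest value at hour 5, where Cp18 and Cp16 had their lowest, and Cp19 had its lowest at hour 11 and its highest at hour 12. The highest array was 1.1-fold to 1.25-fold the lowest over the 5 chorion genes. At hour 1 they stood between 0.938-fold and 1.02-fold of the median of the 8 arrays other than hours 1 and 3, and at hour 3 between 0.929-fold and 1.11-fold of it.

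Fitted changes of the chorion genes over the 11 hours lay between -0.01 and 0.07 on the log2 scale, and the 95% intervals together spanned -0.24 to 0.28 (limma, adjusted p between 0.951 and 0.986). The largest was that of Cp18, 0.07 ± 0.10 (SE, n = 10 arrays; limma, adjusted p = 0.951). Later minus earlier differences lay between 0.0048 for Cp15 and 0.07 for Cp18 (limma, adjusted p between 0.817 and 0.989), with intervals together spanning -0.13 to 0.21. Cp18 averaged 244.9 ± 12.2 in the later hours and 233.4 ± 15.4 in the earlier hours (SD, n = 5 each), and Cp36 averaged 246.8 ± 5.6 in the later hours and 245.6 ± 9.9 in the earlier hours. Fitted changes below 0 were seen in 5 of 8 eggshell genes, against 63.4% of all tested probe sets. The median change of the 8 was -0.01 and that of all tested probe sets -0.04. The table gives no detection calls, so whether these level intensities reflect transcript or the background of the probe sets was not tested.

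The SD of log2 intensity over the 10 arrays separated the vitelline membrane pair from the rest. It was 0.57 for Vm26Aa and 0.29 for Vm34Ca, larger than in 99.1% and 92.2% of tested probe sets. It was 0.12 for psd, larger than in 47.4%, and between 0.045 and 0.093 for the chorion genes, larger than in 1.25% to 26% of them. The median over all tested probe sets was 0.13.

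**Figure D2:**
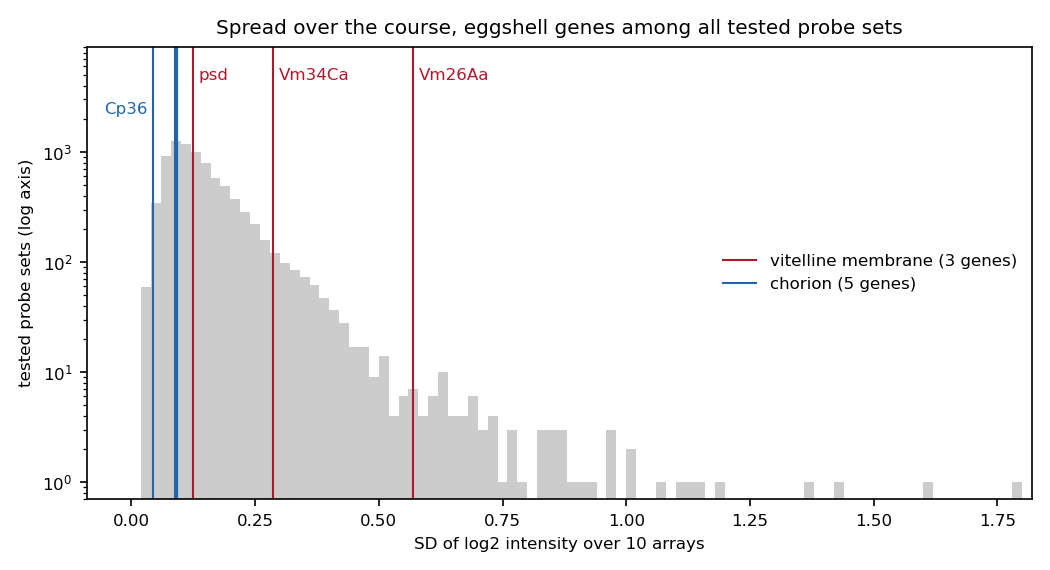
Number of tested probe sets (log axis) by the SD of their log2 intensity over the 10 arrays, with a vertical line for each vitelline membrane gene (red) and each chorion gene (blue). The 5 chorion genes lie at 0.045 to 0.093, below the median of 0.13, and Vm34Ca and Vm26Aa lie at 0.29 and 0.57.

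Vitelline membrane and chorion genes were then set side by side, array by array, as the mean log2 deviation of each group from the own mean of its genes. The mean of the vitelline membrane genes stood at 0.66 at hour 1, -0.09 at hour 2 and 0.43 at hour 3. From hour 5 on it lay between -0.24 and -0.05. Vm26Aa and Vm34Ca alone averaged 0.97 and 0.56 at hours 1 and 3, where psd stood at 0.04 and 0.17. The mean of the chorion genes lay between -0.06 and 0.06 on all 10 arrays. Single chorion genes ranged from -0.17 for Cp18 to 0.18 for Cp15, both at hour 5. Vitelline membrane minus chorion was 0.70, -0.15 and 0.43 at hours 1, 2 and 3. Hour 6 gave 0.01, and the 6 remaining arrays gave -0.25 to -0.07.

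Averaged over arrays, vitelline membrane minus chorion was -0.17 ± 0.08 in the later hours and 0.17 ± 0.38 in the earlier hours (SD, n = 5 each), a gap of -0.34. With hour 1 left out the gap was -0.21, and with hours 1 and 3 left out it was -0.08. These group values are a description and were not tested. Hour 2 lay below 0, between hours 1 and 3 well above it.

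**Figure D3:**
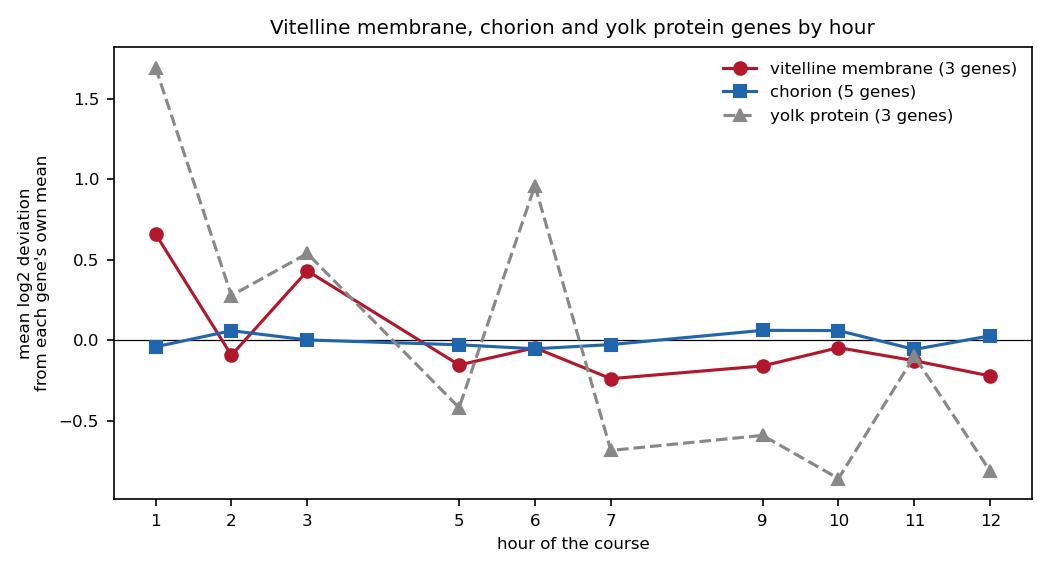
Mean log2 deviation from each gene's own mean against the hour of the course, for the 3 vitelline membrane genes (red circles), the 5 chorion genes (blue squares) and the 3 yolk protein genes (grey triangles), 1 point per array. The vitelline membrane mean is highest at hours 1 and 3 (0.66 and 0.43), where psd alone stands at 0.04 and 0.17. The yolk protein mean is highest at hours 1 and 6 (1.69 and 0.96). The chorion mean stays between -0.06 and 0.06, while single chorion genes range from -0.17 to 0.18.

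Among the eggshell genes, Vm26Aa and Vm34Ca had the most similar courses. Over the 10 arrays their log2 intensities had a Pearson r of 0.941 and a Spearman rho of 0.758, and without hours 1 and 3 r was 0.338. With psd, Vm26Aa had an r of 0.401 and Vm34Ca of 0.299, and without hours 1 and 3 these were 0.089 and 0.012. The 10 pairs of chorion genes had r between -0.21 and 0.865, with a median of 0.125. Cp16 and Cp18 were the closest chorion pair, with an r of 0.865 and a rho of 0.709, and without hours 5 and 10 their r was 0.626. The 15 pairs of a vitelline membrane and a chorion gene had r between -0.42 and 0.562, with a median of -0.13. All these genes were read on the same arrays, so the correlations are given as a description, without p-values.

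Yp1, Yp2 and Yp3 encode the yolk proteins, which come from the female fat body and, during yolk uptake, from the follicle cells. Like Vm26Aa they had their highest value at hour 1, with 1332, 1135 and 1072. Their second highest array was hour 6, where that of Vm26Aa and Vm34Ca was hour 3. By limma 0 of 3 passed the trend test, with fitted log2 changes of -2.09 ± 0.60, -1.84 ± 0.50 and -1.48 ± 0.41 (SE; limma, adjusted p = 0.937 for each). Yp1 had 509.6 at hour 3 and 734.7 at hour 6, while Vm26Aa had 782 and 435. The r of Vm26Aa was 0.82 with Yp1, 0.854 with Yp2 and 0.755 with Yp3, and without hours 1 and 3 it was 0.812, 0.89 and 0.764. Vm34Ca had an r of 0.83 with Yp1, and 0.645 without those hours. psd had an r of 0.097 with Yp1, and 0.438 without hours 3 and 10. The chorion genes had an r with Yp1 between -0.515 for Cp15 and -0.032 for Cp16, with -0.20 for Cp36.

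Other genes of the vitelline membrane and early eggshell were taken from a list of 13, of which 9 had a probe set for them alone and 3 were bright enough to test. By limma 0 of 3 passed the trend test, and the list's median fitted change was -0.16, beside -0.04 over all tested probe sets. fs(1)N encodes a secreted protein of the vitelline membrane that also serves patterning of the embryo's ends. It reached 436 at hour 3, stood at 245.6 at hour 1 and ranged over 211.8 to 276.8 on the arrays other than hour 3, with a fitted change of -0.43 ± 0.24 (SE; limma, adjusted p = 0.937). The terminal patterning gene tsl, whose protein is also placed in the vitelline membrane, had 187.4 at hour 3 and 139 to 161.8 on the other 9 arrays, with a fitted change of -0.16 ± 0.11 (SE; limma, adjusted p = 0.937). The eggshell gene clos, closca, had its highest value, 198, at hour 6 and its lowest, 137.3, at hour 7, with a fitted change of -0.12 ± 0.14 (SE; limma, adjusted p = 0.937). It has further probe sets, and the brightest was used.

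The dim genes of that list were not tested, and many of their values lie below the floor of 57.2 used in the fits. The dec gene, known as defective chorion and used from the vitelline membrane stage on, had 92.9 at hour 1, 65.4 at hour 6 and 43.6 to 53.9 on the other 8 arrays. Vm32E, a vitelline membrane gene of the same family as Vm26Aa, had 89.3 at hour 3 and 44.6 to 66.8 on the other arrays. Vm26Ac, which lies beside Vm26Aa, had 83.3 to 110.5 with its highest value at hour 6. Of the 9 genes, 4 had their highest value at hour 3 and 1 at hour 1, where all tested probe sets gave 30.8% and 7.39%. Only 3 of the 9 were bright enough to belong to the tested set, so these shares are not strictly comparable. Vm26Ab, Vml, fs(1)M3 and Cad99C had no probe set of their own here.

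Other chorion and late eggshell genes were listed as 11, with 9 on a probe set of their own and 2 bright enough to test. By limma 0 of 2 passed, with a median fitted change of 0.08. Pxd, a peroxidase gene of the eggshell, had 250.3 at hour 10 and 204.4 to 225.7 on the other 9 arrays, with a fitted change of 0.09 ± 0.09 (SE; limma, adjusted p = 0.937). Muc4B, a mucin gene, had 298.8 at hour 9 and 203.2 to 257.9 elsewhere on the brightest of its 3 probe sets, with a fitted change of 0.06 ± 0.16 (SE; limma, adjusted p = 0.97). Cp38, the neighbour of Cp36, was too dim to test, with 49.9 to 70.5 and its highest value at hour 10. Cp7Fc, the neighbour on the other side, had 100.1 at hour 10 and 63.8 to 76.7 on the other arrays. yellow-g and yellow-g2, genes of the yellow family used in eggshell hardening, had 66.9 to 79.7 and 72.8 to 100. CG4009, a peroxidase-like gene, had 98.5 at hour 3 and 44.4 to 61.9 elsewhere. Among the 13 other eggshell genes of both lists under the brightness limit, medians lay between 29.9 and 92.4 and the highest array was 1.19-fold to 2.22-fold the lowest.

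Regulators of follicle cells had 7 of 12 genes on a probe set and 5 tested, with 0 of 5 passing the trend by limma and a median fitted change of -0.01. The ecdysone receptor gene EcR had 191.3 to 224.2, the zinc finger gene br, a marker of the cells that form the dorsal appendages, had 122.6 to 149.6, and tj, a follicle cell transcription factor gene, had 222.8 to 263.1. Genes known from the amplification of the chorion clusters had 15 of 16 on a probe set and 7 tested, with 0 of 7 passing by limma and a median of -0.05. The replicative helicase gene Mcm2 had a fitted change of -0.19 ± 0.08 (SE; limma, adjusted p = 0.937). Its highest array was hour 6, with 119.4, and its lowest hour 5, with 101.4. mip130, a subunit of the Myb complex, had 0.18 ± 0.11 and E2f1, a cell cycle transcription factor gene, had -0.18 ± 0.14 (limma, adjusted p = 0.937 for both). The origin recognition genes Orc1, Orc2 and Orc5 were too dim to test.

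The labels do not give the sex of the flies, and markers of female and male tissue were read beside the eggshell genes. Of 16 genes of the female germline, 14 had a probe set and 9 were tested, with 0 of 9 passing the trend by limma and a median fitted change of -0.10. Their mean deviation was highest, 0.27, at hour 6, stood at 0.10 and 0.09 at hours 1 and 3, and was -0.16 to -0.01 on the other 7 arrays, with summed intensities between 2292 and 3245. The germline gene exu, which acts in localising bicoid RNA, had 183.8, 215.1 and 180.4 at hours 1, 3 and 6 and 110.4 to 150 elsewhere, with a fitted change of -0.69 ± 0.23 (SE; limma, adjusted p = 0.937). png, a kinase gene of egg activation, had a fitted change of -0.26 ± 0.15, and nanos, an embryonic patterning gene, of -0.10 ± 0.10 (SE; limma, adjusted p = 0.937 for both). bcd was dim throughout, with 35.9 to 51.2. Of 2 listed genes of the sperm storage gland 1 was tested, with 0 passing the trend by limma. Send1, a protease gene of that gland, had 226.5, 214 and 212.8 at hours 1, 2 and 3 and 105.4 to 125.8 afterwards. Send2, too dim to test, had 72.1, 74.3 and 48.8 at hours 1, 2 and 3 and 39.4 to 55.1 afterwards, so it was not high at hour 3. The array of hour 2, where Vm26Aa had 384.1, was high for Send1.

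Male markers were next set beside the eggshell genes, and most stood apart on 1 array. The 11 testis genes, 8 of them tested with 0 passing the trend by limma, had a mean deviation of 0.94 at hour 7 and -0.15 to -0.02 on the other 9 arrays, with summed intensities of 4386 at hour 7 and 1882 to 2075 elsewhere. Of the 11, 8 had their highest value at hour 7, as did 8.29% of all tested probe sets. Not all 11 were tested, so the shares are not strictly comparable. The meiotic arrest genes aly, sa and can did not, with 176.5, 143.8 and 18.8 on that array. Their highest values, 179.8, 236.3 and 25.7, were those of hours 12, 3 and 10. The 9 accessory gland genes, all under the brightness limit and all highest at hour 7, had 0.58 at hour 7 and -0.10 to -0.03 elsewhere, with summed intensities of 1030 at hour 7 and 324 to 390.8 elsewhere. The sperm tail gene Mst84Dd had 753.8 at hour 7 and 119.3 to 130.2 on the other 9 arrays. The eggshell genes at hour 7 lay within their range on other arrays or, for Vm34Ca and psd, at their lowest, 362 and 186.4. Without hour 7 the fitted change of Vm26Aa was -1.13 and that of Vm34Ca was -0.54. The part of the sex makeup of the samples in the eggshell values was not tested.

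**Figure D4:**
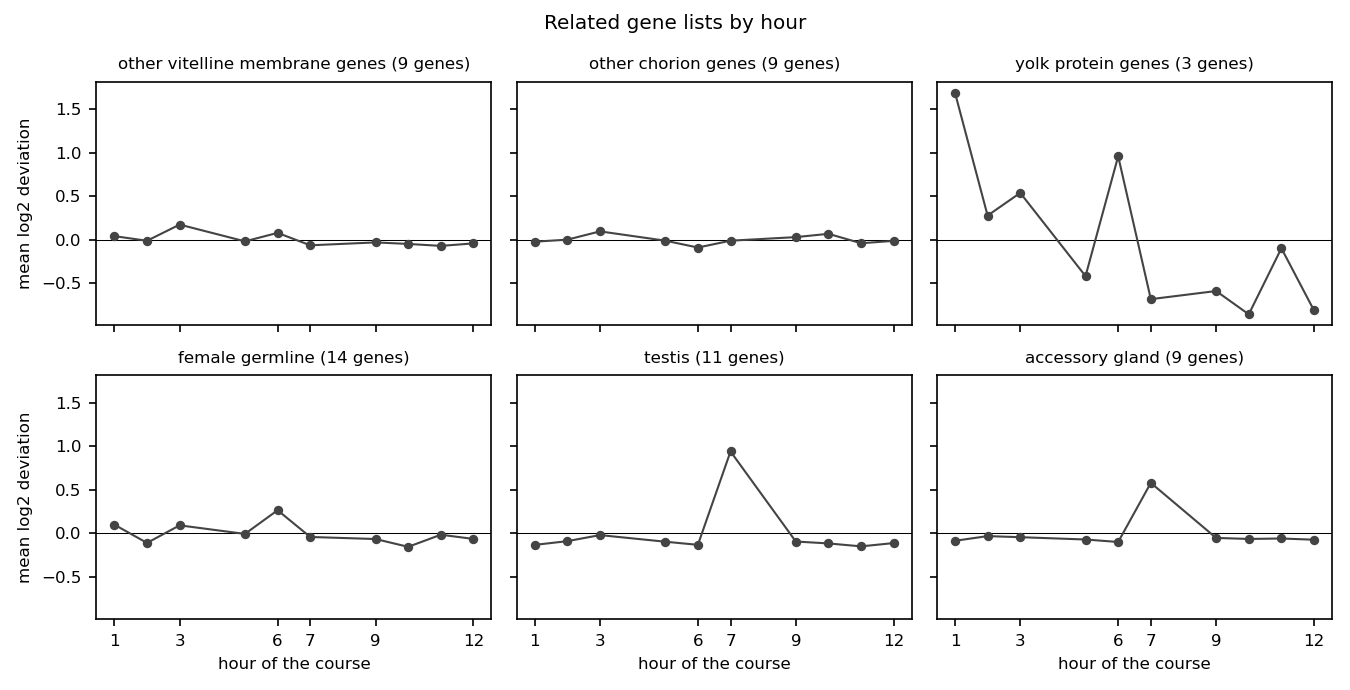
Mean log2 deviation from each gene's own mean against the hour of the course, 1 point per array, for the other vitelline membrane genes, the other chorion genes, the yolk protein genes, the female germline, the testis and the accessory gland. The list means of the other eggshell genes stay between -0.09 and 0.17, and the female germline mean is highest at hour 6 (0.27). The testis and accessory gland means are at 0.94 and 0.58 at hour 7.

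The tested genes whose course was most like the mean of the 3 vitelline membrane genes were LManVI, sn, nero, CG13933 and CG8401, with a Pearson r over the 10 arrays of 0.892, 0.879, 0.844, 0.844 and 0.841. The lysosomal mannosidase gene LManVI had 165.4 and 138.8 at hours 1 and 3 and a lowest value of 85.3 at hour 11. sn, which encodes the actin bundling protein fascin, had 189.3, 184.3 and a lowest value of 133.2 at hour 7, and nero, a deoxyhypusine hydroxylase gene, had 149.5, 164.5 and a lowest value of 116.4 at hour 12. Without hours 1 and 3 the 5 r values were 0.449, 0.532, 0.772, 0.223 and 0.44. The mean of the yolk protein genes had an r of 0.798 with the vitelline membrane mean and of -0.48 with the chorion mean.

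Most like the chorion mean were CG32793, hec, CG15117, CG14113 and NC2alpha, with r of 0.931, 0.911, 0.91, 0.903 and 0.899. Their fitted changes over the 11 hours lay between -0.02 for hec and 0.06 for NC2alpha on the log2 scale. CG32793 lay between 162.1 and 181, hec, a receptor gene of the secretin family, between 104.3 and 129.9, and NC2alpha, a transcriptional repressor subunit gene, between 91.1 and 126. Each set of 5 was picked as the highest of all tested genes, so a high r is fixed by the choice.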

How the data were processed

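RNA from whole flies was read on Affymetrix arrays and the signals were normalized by the authors with dChip through an invariant set, per the labels. The deposited table gives linear intensities. Neither the dChip version nor how mismatch probes were handled is stated. This scaling can take out a shift common to most genes, but the arrays still differed after it. Hour 3 had the highest array median and was the highest array for 30.8% of tested probe sets. The table held 14010 probe sets on 10 arrays, 44 of them controls. Among the others the platform annotation named 1 gene for 12442, several for 327 and none for 1197. Symbols were updated by Entrez identifier from the Release 6 gene table, which was used for names and neighbours only, since the files name no genome build. Probe sequences were not used here, so cross-hybridisation within the vitelline membrane family was not examined. No sequence is printed.

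Before log2 was taken, a floor of 57.2 (20th percentile) was set, and fold changes of dim genes are understated by this. The 8380 probe sets whose mean log2 reached its 40th percentile were tested. Fits used limma 3.58.1 in R 4.3.3 (lmFit, eBayes with an intensity trend, two-sided, Benjamini-Hochberg at 0.05) with a slope on the hour, a term for the later hours (7 to 12), or a spline of 3 degrees of freedom. Deviations and correlations used the same log2 values in Python 3.11.15 with pandas 2.3.3, scipy 1.17.1 and matplotlib 3.10.9. The number of arrays limits the precision, and pool sizes are not stated. The p-values set each fitted change against the scatter of single arrays about the fitted course.

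Each fit was run on simulated data in which 200 of 8380 probe sets had been changed. A planted total log2 change of 1.1 was recovered in 88.5% by slope, 98.5% by later against earlier hours and 83.5% by spline. At 0.55 these shares were 46%, 81% and 6%. For the spline the planted course was a parabola over the hours with its turning point in the middle of the course. With 200 changed probe sets the adjustment is milder than in the real data, where 4, 1 and 0 of 8380 passed. The shares are thus not those to be had in the real data. The simulated scatter was normal and independent between probe sets, so shifts shared by a whole array were left out. The changed probe sets were drawn from all those tested, with a median SD of 0.13. The shares therefore do not tell what would be recovered for a gene as variable as Vm26Aa, with an SD of 0.57.

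The eggshell genes and the gene lists were chosen with earlier results of these data known. The rule for named genes took every eggshell and yolk protein probe set, all tested genes of the other eggshell lists, up to 3 genes of each other list and the 5 genes most like each group mean. Genes named beyond it (dec, Vm32E, Vm26Ac, Cp38, Cp7Fc, CG4009, yellow-g, yellow-g2, the Orc genes, bcd, Send2, Mst84Dd, aly, sa and can) were chosen after their values were seen. Lists used the brightest probe set of a gene. Alternatives changed the scaling (quantile, median), the floor (an offset of 32, or the 5th percentile), the filter, the split, the curve and the covariates (actin ratio), or left out each array. Leaving out hours 1 and 3 together, and leaving out psd, were added after seeing the data.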

Additional observations from a re-analysis of the deposited data

Results flagged for a closer look

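On 7 of 38 genes and lists examined, 1 array lay far from the other 9, judged by its gap to the nearest array as a share of the whole range of log2 values by Dixon's test. Chance gives such a gap in about 1 of 20 independent groups of normal values, and a course that changes with the hour can give it too. The 38 were read on the same arrays, and some lists hold genes that were also examined singly. How often such a gap occurs over all tested probe sets was not counted, so the 7 are a description. Vm34Ca had 687.9 at hour 1, with a gap of 0.498 of its range. Vm26Aa, with 2 high arrays, had a gap of 0.226. Among the other eggshell genes, fs(1)N had 436 at hour 3 (gap 0.629), tsl had 187.4 at hour 3 (gap 0.493) and Pxd had 250.3 at hour 10 (gap 0.511). Hour 3 was the highest array for 30.8% of all tested probe sets.

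Of the lists, the chorion gene amplification genes had a mean deviation of 0.086 at hour 6 (gap 0.521). That hour was the highest array for 18.8% of all tested probe sets. The testis genes had 0.943 at hour 7 (gap 0.881) and the accessory gland genes 0.581 at hour 7 (gap 0.9). Of the 8 eggshell genes, Vm34Ca was the 1 with such an array.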

How the results depend on the processing

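No eggshell gene passed the trend, the later against earlier or the smooth test under any alternative run, nor without any 1 array, and the smallest adjusted p among 458 such values was 0.467 (limma). With a filter at the 60th percentile Cp15 and Cp19 were too dim to test. The counts over all probe sets were less stable. The trend count of 4 was 1 with an added offset, 2 with array order in place of the hour, and 0 in each of 3 others: unfiltered, adjusted for the actin ratio, and without hours 1 and 3. It was 0 to 2 without 1 array. The later against earlier count of 1 was 3 with quantile normalization or the stricter filter, 2 with median centring, 0 with no filter, the actin ratio, another split or without hours 1 and 3, and 0 to 2 without 1 array. The smooth count of 0 was 4 with a quadratic curve.

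Vm26Aa, Vm34Ca and Cp18 kept their sign in both fits throughout. The trend of Vm26Aa was -1.46 to -0.63 and that of Vm34Ca -0.69 to -0.22 without 1 array, lowest in size without hour 1. Genes with changes near 0 turned sign in 44 of the trend and later minus earlier values among those 458. The smooth test gives no sign, and the cause of the turns was not tested. In the trend, quantile normalization and median centring gave 0.054 and 0.029 for Cp16, 0.053 and 0.029 for Cp36, and 0.044 and 0.019 for psd. Without hours 1 and 3, Cp15 had -0.046 and psd 0.096. In later minus earlier hours, the actin covariate gave -0.024 for Cp15, -0.0050 for Cp36 and 0.0017 for psd. Without hours 1 and 3 these were -0.034, -0.0081 and 0.061. A split after hour 5 gave -0.051 for Cp15, -0.0036 for Cp19 and -0.015 for Cp36, and a split after hour 7 gave 0.065 for psd. For psd quantile normalization gave 0.045 and median centring 0.018. Without 1 array the trend ranged from -0.0012 to 0.066 for Cp15, -0.068 to 0.044 for Cp16, -0.030 to 0.12 for Cp19, -0.043 to 0.018 for Cp36 and -0.10 to 0.035 for psd. The later minus earlier difference ranged from -0.028 to 0.050 for Cp15, -0.021 to 0.052 for Cp16, -0.0080 to 0.062 for Cp19, -0.0096 to 0.026 for Cp36 and -0.063 to 0.036 for psd.

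The vitelline membrane minus chorion gap between later and earlier hours, -0.34, ranged from -0.42 to -0.21 without 1 array, was -0.08 without hours 1 and 3 and -0.50 without psd. The r of Vm26Aa with Vm34Ca, 0.941, was 0.89 to 0.963 without 1 array and 0.338 without hours 1 and 3. No paired analysis was possible because all arrays belong to 1 group with 1 array an hour.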
